A study of Mus musculus with 6 samples.

Results

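The goblet cell secretory genes Muc2, Clca1, Fcgbp, Tff3, Zg16, Agr2, Retnlb, Spdef and Spink4 were examined in colorectal tissue of colitis mice receiving berberine (BBR), a plant alkaloid, or sulfasalazine (SASP), an aminosalicylate prodrug used against ulcerative colitis. They were found by gene symbol, and all 9 were present once among the 18268 genes of the expression table. The mice were C57BL/6 adult males in both groups. All 6 mice were given DSS (dextran sulfate sodium), which damages the colon lining, in drinking water for 7 days, and each received its drug by gavage for 6 days. The groups held 3 mice each, and they differed only in the drug as far as the labels say. Healthy mice and colitis mice without a drug were not analysed here, so every difference is between the drugs. The study names rectal samples where it describes the sequencing of BBR mice and colon samples where it describes that of SASP mice, whereas the labels give one colorectal tissue for both, and a difference in gut segment cannot be told apart from a difference in drug.

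Goblet cells are the mucus-secreting cells of the gut epithelium. They store the gel-forming mucin Muc2 in granules and release it with partner proteins to build the mucus that keeps bacteria away from the colon surface, and this layer is damaged in DSS colitis and in ulcerative colitis. The genes are grouped here by role: the proteins of the mucus gel (Muc2, Fcgbp, Clca1), the small secreted proteins that act within it (Tff3, Zg16, Retnlb, Spink4), the folding enzyme Agr2 and the transcription factor Spdef.

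Promoter sequences are shown for Muc2, Fcgbp, Spdef and Agr2, the genes with an entry in the promoter table used here, so that the letters can be set beside how these genes varied from mouse to mouse, as described further on. Each sequence is the 250 bases before the transcription start in RefSeq, on the strand of the gene, in build GRCm38.p6. These 4 of the 9 genes were matched. Capitals mark the letters CAGCTG (an E-box of the class bound by Atoh1), GATAA (GATA factors), CACCC (Klf factors) and TATAA (the TATA box), searched on both strands. They lie at chr7:141690090-141690339 on the plus strand (Muc2), at chr7:28070986-28071235 on the plus strand (Fcgbp), at chr17:27728952-27729201 on the minus strand (Spdef) and at chr12:35992675-35992924 on the plus strand (Agr2).
Muc2: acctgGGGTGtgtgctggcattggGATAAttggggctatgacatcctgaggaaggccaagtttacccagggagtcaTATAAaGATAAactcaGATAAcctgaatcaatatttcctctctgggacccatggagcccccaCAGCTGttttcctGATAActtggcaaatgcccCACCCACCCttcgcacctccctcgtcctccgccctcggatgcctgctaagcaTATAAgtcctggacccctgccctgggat
Fcgbp: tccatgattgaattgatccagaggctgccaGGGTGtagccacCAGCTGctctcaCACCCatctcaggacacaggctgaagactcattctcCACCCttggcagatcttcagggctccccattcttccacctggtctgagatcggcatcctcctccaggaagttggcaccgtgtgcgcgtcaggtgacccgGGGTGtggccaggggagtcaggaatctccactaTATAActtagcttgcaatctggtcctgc
Spdef: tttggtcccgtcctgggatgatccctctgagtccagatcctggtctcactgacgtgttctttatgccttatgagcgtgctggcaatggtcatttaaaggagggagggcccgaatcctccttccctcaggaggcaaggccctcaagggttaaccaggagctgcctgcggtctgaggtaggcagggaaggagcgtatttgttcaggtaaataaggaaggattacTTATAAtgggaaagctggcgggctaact
Agr2: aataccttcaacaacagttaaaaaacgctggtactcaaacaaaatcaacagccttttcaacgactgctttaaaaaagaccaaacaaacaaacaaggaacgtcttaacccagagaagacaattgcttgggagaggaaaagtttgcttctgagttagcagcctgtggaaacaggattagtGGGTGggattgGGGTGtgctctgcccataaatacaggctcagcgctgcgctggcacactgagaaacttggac

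CAGCTG was found once in Muc2 and once in Fcgbp and is held by 13% of the 32851 promoters of the same length. GATAA was found at 4 places in Muc2 and is held by 22.6% of promoters. CACCC was found at 3 places in Muc2, 4 in Fcgbp and 2 in Agr2, and is held by 52% of promoters. TATAA was found at 2 places in Muc2, at 1 in Fcgbp and at 2 overlapping places in Spdef, and is held by 22.8% of promoters. These matches describe the letters only and say nothing of which factors bind.

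Levels are given as FPKM, a read level corrected for transcript length and library size, which the authors calculated per gene and mouse and which allow genes of unequal length to be compared. Between 11518 and 12307 genes reached 1 FPKM per mouse, and the depth estimated from the smallest values was 16400000 to 18200000 reads. BBR mouse 3 stood apart: its log2 profile over genes correlated with those of BBR mice 1 and 2 at only 0.953 and 0.949, whereas the latter pair reached 0.987 and pairs of SASP mice 0.982 to 0.989. Values without BBR mouse 3 are therefore given beside the results that it moves most. The tissue label was checked against marker genes: Epcam, an epithelial adhesion protein, was between 833 and 1101 FPKM in all mice, whereas most markers of the small intestine and of squamous epithelium were near 0. The small intestinal enzyme gene Sis was at most 0.01 FPKM, but the fatty acid-binding protein gene Fabp2 was between 6.84 and 12.9 FPKM, and Fabp6 reached 22.76 FPKM in SASP mouse 1. The squamous keratin gene Krt5 was at most 0.25 FPKM, but the cornified envelope gene Sprr1a was at 29.58 FPKM in BBR mouse 3, against 1.29 to 9.72 FPKM in the other mice.

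Several goblet cell genes were among the most abundant transcripts of this tissue. By mean FPKM over the 6 mice the order was Zg16, Clca1, Tff3, Fcgbp, Muc2, Agr2, Spink4, Retnlb and Spdef, with Zg16 ranking 4 and Clca1 ranking 5 among the 12072 genes with at least 1 FPKM in at least 3 mice. Each gene exceeded the next in all 6 mice, except that Muc2 exceeded Agr2 in 3 of 6 and Retnlb exceeded Spdef in 4 of 6. Summed over the 9 genes, the level was 14174, 12396 and 24522 FPKM in BBR mice 1, 2 and 3, and 10657, 15727 and 14734 FPKM in SASP mice 1, 2 and 3. This was between 2.19% and 5.2% of all FPKM of a mouse. The group means were 17031 ± 6549 (SD, n = 3) for BBR and 13706 ± 2687 (SD, n = 3) for SASP, a ratio of 1.24, and the groups overlapped. Without BBR mouse 3 the ratio was 0.969. Zg16 alone made up 33.4% to 47.9% of the sum.

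**Figure D1:**
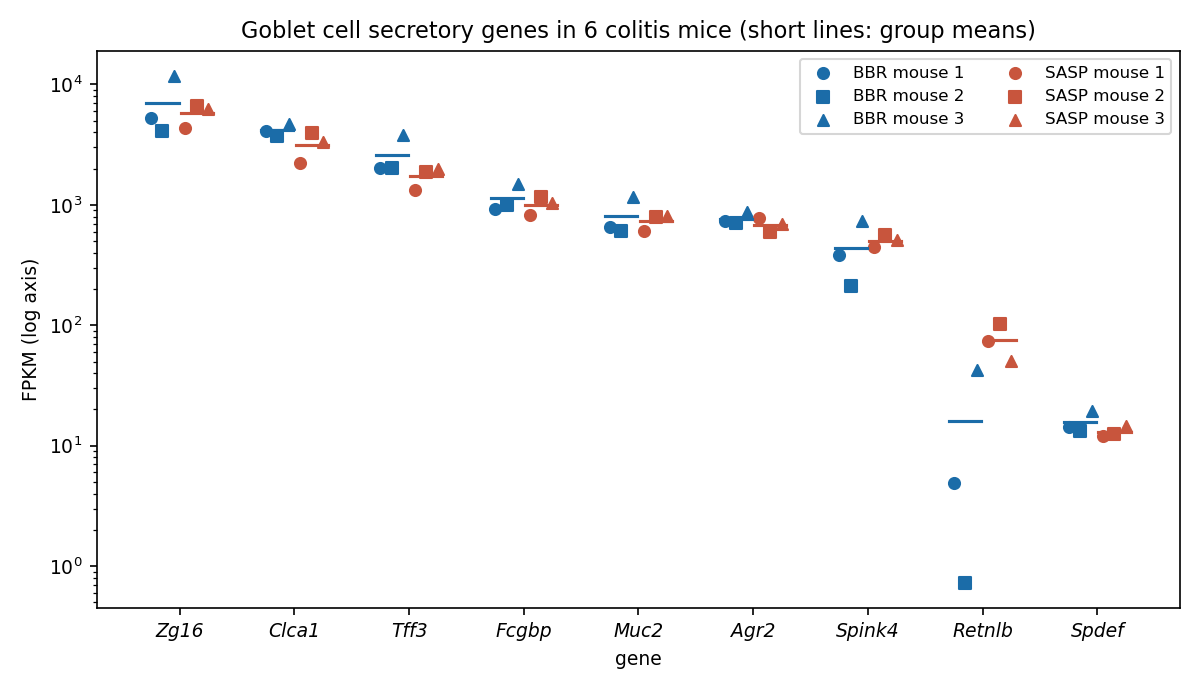
FPKM of each goblet cell gene (log axis) in the 3 BBR and 3 SASP mice, with points for mice and short lines for group means. Retnlb was lower in every BBR mouse than in every SASP mouse, Tff3 was higher in every BBR mouse, and BBR mouse 3 (blue triangle) was the highest BBR mouse for all 9 genes.

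To find which genes differed between the drugs, all genes with at least 1 FPKM in at least 3 of the 6 mice were compared with limma on log2(FPKM + 1), with Benjamini-Hochberg adjustment over the 12072 genes tested. All 9 goblet cell genes were tested, and 0 passed an adjusted p of 0.05, beside 8.86% of all tested genes (3.82% higher and 5.04% lower in BBR). At an unadjusted p of at most 0.05, 1 gene (Retnlb) passed, beside 31.8% of all tested genes. The log2 fold change, BBR minus SASP, was above 0 for 7 genes and below 0 for 2, with a median of 0.17. Over all tested genes the median was 0.10, and 60.8% were above 0. The values of the groups did not overlap for 2 of the 9 genes (Tff3, higher in BBR, and Retnlb, lower in BBR), whereas 37.9% of all tested genes had groups that did not overlap, 21.3% with BBR above and 16.6% with BBR below SASP. In whole tissue, fewer goblet cells and less RNA per goblet cell cannot be told apart.

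The mucus gel genes had overlapping groups. Muc2, which encodes the gel-forming mucin of the colon, was at 659.62, 606.06 and 1168.26 FPKM in BBR mice 1, 2 and 3, and at 612.54, 789.68 and 809.37 FPKM in SASP mice 1, 2 and 3. BBR mouse 3 was high and the other BBR mice lay within or just below the SASP range. The log2 fold change of Muc2 was 0.08 (SE 0.27, 95% interval -0.56 to 0.73, adjusted p = 0.847 by limma). Fcgbp, a large mucus protein with repeated von Willebrand domains, was at 932.95, 1005.96 and 1499.8 FPKM in BBR mice and at 821.5, 1162.1 and 1038.77 FPKM in SASP mice. Again BBR mouse 3 was the highest of all mice, and the others were mixed. Its log2 fold change was 0.17 (SE 0.23, interval -0.38 to 0.72, adjusted p = 0.64 by limma). Clca1, a secreted metalloprotease that processes the mucus gel, was at 4083.23, 3699.89 and 4673.52 FPKM in BBR mice and at 2209.58, 3947.14 and 3357.04 FPKM in SASP mice. SASP mouse 1 was the lowest, and SASP mouse 2 lay within the BBR range. Its log2 fold change was 0.42 (SE 0.27, interval -0.22 to 1.07, adjusted p = 0.315 by limma).

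Of the small secreted proteins, Tff3 had the highest fold change. Tff3, a trefoil peptide that helps epithelial cells to close wounds, was at 2044.1, 2016.63 and 3770.66 FPKM in BBR mice and at 1330.39, 1878.1 and 1996.52 FPKM in SASP mice. The lowest BBR value lay only just above the highest SASP value, so the groups did not overlap but nearly touched. The means were 2610 ± 1005 and 1735 ± 355 FPKM (SD, n = 3 each), and the log2 fold change was 0.55 (SE 0.31, interval -0.18 to 1.27, adjusted p = 0.256 by limma). It was 0.25 without BBR mouse 3 and 0.13 with array weights, which count deviating mice for less. Zg16, a lectin that binds Gram-positive bacteria, was at 5317.34, 4135.61 and 11748.42 FPKM in BBR mice and at 4369.42, 6683.98 and 6271.15 FPKM in SASP mice. BBR mouse 3 lay far above every other mouse, and BBR mouse 2 was the lowest. Its log2 fold change was 0.17 (SE 0.43, interval -0.85 to 1.18, adjusted p = 0.81 by limma).

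Retnlb showed the largest difference between the drugs. Retnlb encodes resistin-like molecule beta, an antibacterial goblet cell protein known to be induced by type 2 cytokines. It was at 4.92, 0.73 and 42.69 FPKM in BBR mice and at 73.59, 103.25 and 50.4 FPKM in SASP mice. All SASP mice were high, BBR mice 1 and 2 were low, and BBR mouse 3 came close to the lowest SASP mouse. These values rest on about 57, 8.3 and 500 reads in BBR mice and about 910, 1300 and 590 reads in SASP mice. The means were 16.1 ± 23.1 and 75.7 ± 26.5 FPKM (SD, n = 3 each), a ratio of 0.213. The log2 fold change was -3.27 (SE 1.05, interval -5.76 to -0.78, adjusted p = 0.0897 by limma), which did not pass the threshold over all genes. Only 0.257% of tested genes had a lower fold change, and its residual spread within groups was at percentile 99.9 of tested genes. Without BBR mouse 3, the log2 fold change was -4.52 (adjusted p = 0.00374 by limma), where 33.8% of all tested genes passed. With array weights, Retnlb (-3.41, adjusted p = 0.000398 by limma) and Spink4 passed, where 59% of all tested genes did, and with the epithelial marker mean subtracted Retnlb passed (-3.55, adjusted p = 0.0441 by limma), where 17% did.

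Spink4, a Kazal-type protease inhibitor of goblet cell granules, was highest in BBR mouse 3 and lowest in BBR mouse 2 within the BBR group. Retnlb and most of the other goblet cell genes had this order too. It was at 380.87, 209.98 and 733.42 FPKM in BBR mice and at 447.84, 559.92 and 506.34 FPKM in SASP mice. The SASP mice were close to each other and lay between BBR mouse 3 and the other BBR mice. The log2 fold change was -0.37 (SE 0.41, interval -1.34 to 0.60, adjusted p = 0.558 by limma). Without BBR mouse 3, it was -0.83 (adjusted p = 0.0474 by limma), where 33.8% of all tested genes passed, and without BBR mouse 2 it was 0.07.

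The folding enzyme and the transcription factor varied least. Agr2, a disulfide isomerase of the endoplasmic reticulum needed for making Muc2, was at 736.5, 707.8 and 865.89 FPKM in BBR mice and at 779.74, 590.26 and 690.25 FPKM in SASP mice. The groups were interleaved. Its log2 fold change was 0.17 (SE 0.16, interval -0.21 to 0.55, adjusted p = 0.488 by limma). Spdef, the transcription factor that drives goblet cell maturation, was at 14.22, 13.28 and 19.59 FPKM in BBR mice and at 11.97, 12.49 and 14.66 FPKM in SASP mice. Only SASP mouse 3 reached into the BBR range. Its log2 fold change was 0.24 (SE 0.17, interval -0.16 to 0.63, adjusted p = 0.354 by limma).

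**Figure D2:**
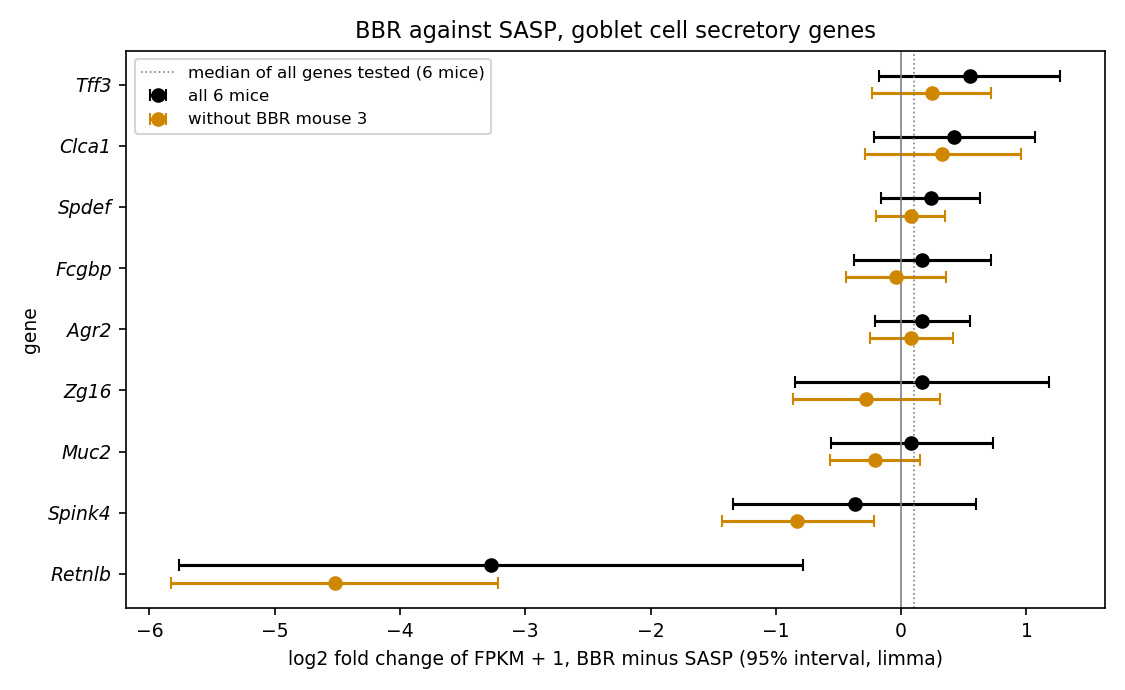
Log2 fold change of FPKM + 1 (BBR minus SASP) of each gene with its 95% interval from limma, for all 6 mice (black) and without BBR mouse 3 (orange), and the median of all genes tested (dotted line). With all mice only the interval of Retnlb excludes 0, and without BBR mouse 3 those of Retnlb and Spink4 do.

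The 9 goblet cell secretory genes varied together within the BBR group, with BBR mouse 3 highest throughout. This mouse was the highest BBR mouse for 9 of 9 genes, compared with 22.8% of all tested genes, and the highest of all 6 mice for 8 of 9. Its log2 level minus the mean of BBR mice 1 and 2 had a median of 0.88 over the goblet cell genes and of -0.19 over all tested genes. This difference was smallest for Agr2 at 0.26 and Clca1 at 0.27, and largest for Retnlb at 3.77, Spink4 at 1.37 and Zg16 at 1.32. A high level in BBR mouse 3 was not particular to goblet cell genes. In the BBR mice absorptive colonocyte markers summed to 12437, 10120 and 16032 FPKM and enteroendocrine markers to 397, 373 and 722 FPKM. Abundant genes carry such sums, and Pyy made up the largest part of the enteroendocrine ones. Some other markers of these lists were lowest in BBR mouse 3. Among them were Chga (36.42, 43.21 and 29.82 FPKM in BBR mice 1, 2 and 3), Chgb, Mep1a (188.45, 223.34 and 93.46 FPKM) and Slc37a2. Sums of other mucins and of antimicrobial and lectin genes were also highest in BBR mouse 3. Those of epithelial markers at large (9436, 8735 and 9352 FPKM) and of tuft and stem cell markers were not. The pattern did not extend to all genes of goblet cell fate and mucin folding, which are listed further on. Atoh1 (24.66, 28.69 and 18.01 FPKM in BBR mice 1, 2 and 3), Creb3l1 (45.34, 49.21 and 19.7 FPKM) and Ern2 (25.19, 28.27 and 15.25 FPKM) were lowest in BBR mouse 3. Elf3 was highest in it. SASP mouse 1 was the lowest SASP mouse for 7 of 9 genes, compared with 47.2% of all tested genes. Without BBR mouse 3, the median log2 fold change of the 9 genes was -0.04 (0.16 over all tested genes), with 4 above 0 and 5 below 0.

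After the group means were removed, the correlation of log2 levels over the 6 mice had a median of 0.78 among the 36 pairs of genes. All pairs share the same mice, BBR mouse 3 among them, so the correlations are given as a description. Among Muc2, Fcgbp, Tff3, Zg16, Spdef, Spink4 and Clca1 they were between 0.50 and 0.99, with 0.99 for Muc2 with Zg16 and for Muc2 with Tff3. Agr2 was set apart, at -0.49 to 0.50 with the other genes. The levels of Retnlb followed Spink4 most closely, at 0.97.

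Set against Muc2 of the same mouse, Tff3 separated the groups more clearly. Tff3 was at 3.1, 3.33 and 3.23 FPKM per Muc2 FPKM in BBR mice and at 2.17, 2.38 and 2.47 in SASP mice, with means of 3.22 ± 0.115 and 2.34 ± 0.151 (SD, n = 3 each). BBR mouse 3 lay between the other BBR mice on this scale. Retnlb was at 7.46, 1.2 and 36.5 FPKM per 1000 Muc2 FPKM in BBR mice and at 120, 131 and 62.3 in SASP mice, without overlap. The ratios of the other 6 genes overlapped between the groups. Fcgbp, for example, was between 1.28 and 1.66 FPKM per Muc2 FPKM in all mice. These ratios were chosen after the levels had been seen and were not tested.

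**Figure D3:**
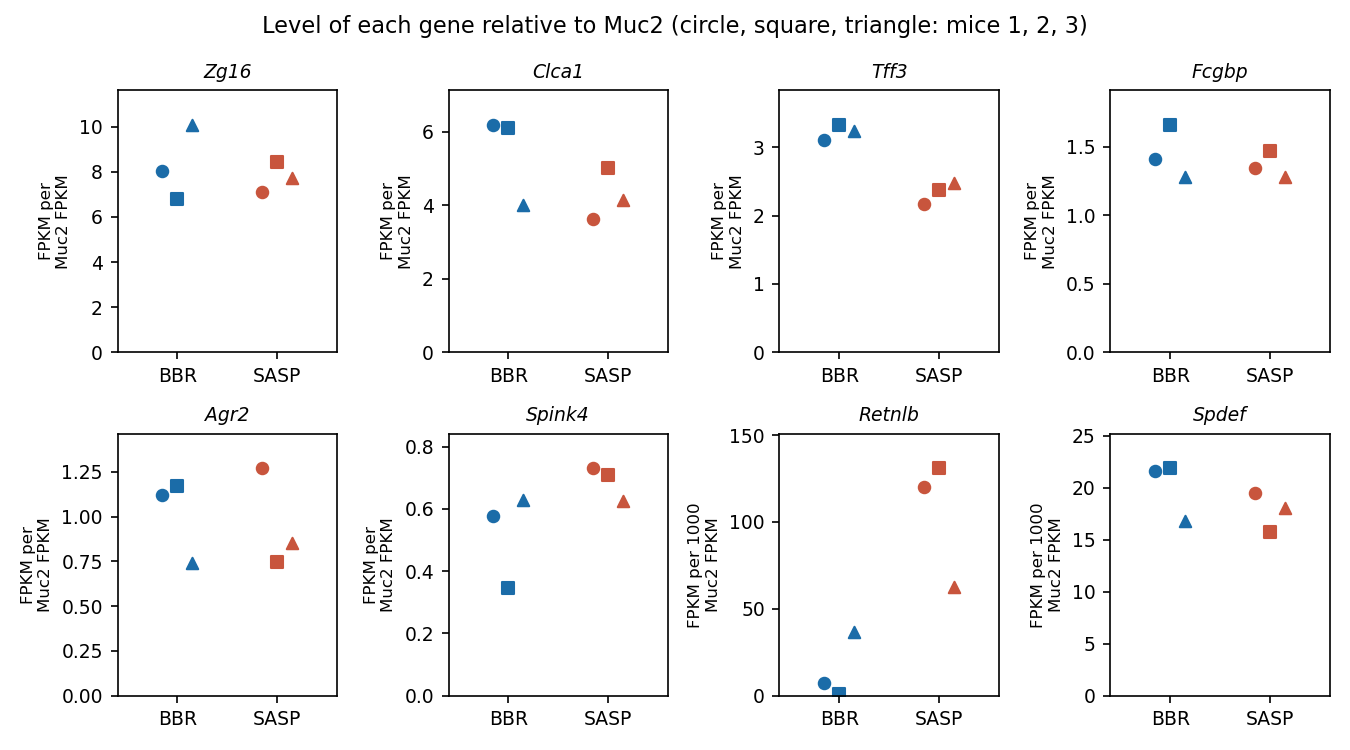
FPKM of each gene divided by Muc2 FPKM of the same mouse (for Retnlb and Spdef, per 1000 Muc2 FPKM), in BBR and SASP mice. The groups are apart for Tff3 (BBR higher) and Retnlb (BBR lower) and overlap for the other 6 genes.

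Markers of other cell types also differed between the mice. The 13 epithelial marker genes had a mean log2 level of 8.48, 8.36 and 8.47 in BBR mice and of 8.22, 8.16 and 8.10 in SASP mice. The gap of 0.28 in this mean came from a few genes, among them Cldn4 (log2 fold change 1.21), Krt18 (0.75), Phgr1 (0.70) and Cdx2 (11.85 to 22.85 FPKM in BBR and 3.74 to 9.13 FPKM in SASP mice), while Vil1 (-0.55) and Cldn7 (-0.45) were below 0 and the median of the 13 log2 fold changes was 0.04. The summed levels of the list overlapped, at 8735 to 9436 FPKM in BBR mice and 8535 to 9456 FPKM in SASP mice. When this mean was subtracted in each mouse, 2 goblet cell genes were above 0 in BBR minus SASP and 7 below, with a median of -0.11. This median turned to 0.04 without BBR mouse 1 and to 0.21 when the absorptive colonocyte markers were subtracted instead, and was -0.31 without BBR mouse 3. For Retnlb this difference was -3.55, with an exact two-sided permutation p of 0.1, the smallest that 3 against 3 mice allow, and 0.9 after adjustment over the 9 genes. The 12 markers of absorptive colonocytes, the other main cell type of this epithelium, summed to 10120 to 16032 FPKM in BBR mice. BBR mouse 3 was the highest of them, and SASP mice were at 17098 to 18076 FPKM, with no overlap. Saa1 made up a large part of these sums, at 4315.7 to 6799.85 FPKM in BBR mice and 9449.39 to 11127.58 FPKM in SASP mice. The lack of overlap between the sums rests on this gene, so it does not hold for colonocyte markers in general. Krt20, Ceacam1 and Ceacam20 were also lower in every BBR mouse, whereas Car4, Slc26a3 and Aqp8 overlapped between the groups. Car1 was higher in every BBR mouse, with a log2 fold change of 2.48. Of the log2 fold changes, 6 were above 0 and 6 below, with a median of -0.13. With all mice 0 of these genes passed the threshold. Without BBR mouse 3, 2 were called higher and 6 lower, which is 66.7% beside 33.8% of all tested genes. The 10 smooth muscle markers had a summed level of 2905 to 6833 FPKM in BBR mice, highest in BBR mouse 3, and of 763 to 2334 FPKM in SASP mice. All 10 had a log2 fold change above 0 and 0 passed the threshold. Of the 9 fibroblast markers, 4 were called higher in BBR, beside 3.82% of all tested genes, with sums of 315 to 420 against 140 to 247 FPKM. This count was 8 without BBR mouse 3, where 33.8% of all tested genes passed in either direction. It was 3 without SASP mouse 2 and 0 without any one of the other mice. Over all tested genes, 405 and 51 to 371 passed in those fits, against 1069 with all 6 mice. The 10 leukocyte markers summed to 78 to 110 FPKM in BBR mice and to 142 to 161 FPKM in SASP mice. Lyz2 made up most of these sums, at 59.21 to 92.93 FPKM in BBR mice and 99.12 to 113.1 FPKM in SASP mice. Of the 6 tested, 1 had a log2 fold change above 0 and 5 below, and Ptprc, Csf1r and Cd68 overlapped between the groups. In BBR 1 was called lower, beside 5.04% of all tested genes. This count was 0 without BBR mouse 1, BBR mouse 2, SASP mouse 1 or SASP mouse 3, where 51 to 371 of all tested genes passed. The 9 posterior Hox genes, which mark position along the distal gut, summed to 406, 470 and 244 FPKM in BBR mice and to 312, 276 and 334 FPKM in SASP mice, so that BBR mouse 3 was the lowest. The part of these differences in the goblet cell results was not tested.

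To place the secretory genes in their pathway, 7 lists of companion genes with 84 tested members were examined. Of these, 2 were higher and 1 was lower in BBR at an adjusted p of 0.05, which is 3.57% beside 8.86% of all tested genes, and their median log2 fold change was 0.02. With BBR mouse 3 left out, 33 of 83 tested companion genes passed (12 higher, 21 lower), which is 39.8% beside 33.8% of all tested genes, and with array weights 54 of 84 did, which is 64.3% beside 59%. Without any one of the other mice, 0 or 1 passed, where only 51 to 405 of all tested genes did, against 1069 with all 6 mice. Among 13 tested regulators of goblet cell fate, 0 passed, with a median of 0.23. Without BBR mouse 3, 3 passed, all higher in BBR. This is 23.1% beside 33.8% of all tested genes, and 65.9% of the calls over all genes were then higher in BBR. The list also held Notch genes (Hes1, Dll1 and Dll4), so its direction was not read as one of goblet cell fate. Elf3, an epithelial transcription factor and the most abundant of the 13, had a log2 fold change of 0.23 (adjusted p = 0.356 by limma).

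Among 17 tested genes of mucin folding and granule release, 1 was lower and 0 were higher, with a median of 0.04. When BBR mouse 3 was left out, 6 were lower and 1 was higher, which is 41.2% beside 33.8% of all tested genes. Pdia4, a disulfide isomerase of the endoplasmic reticulum, was at 41.87, 46.29 and 45.56 FPKM in BBR mice and at 69.77, 64.71 and 61.0 FPKM in SASP mice. All BBR mice, BBR mouse 3 included, were below all SASP mice. Pdia4 fell by 0.54 on the log2 scale (adjusted p = 0.026 by limma).

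Among 15 tested enzymes of mucin O-glycosylation, 1 was higher and 0 were lower, with a median of -0.03. When BBR mouse 3 was left out, 1 was higher and 5 were lower, which is 40% beside 33.8% of all tested genes. Galnt7, which adds N-acetylgalactosamine to partly glycosylated proteins, was at 66.6, 65.61 and 61.18 FPKM in BBR mice and at 42.76, 49.73 and 41.22 FPKM in SASP mice. The groups were well apart, and the log2 fold change was 0.53 (adjusted p = 0.0345 by limma). A further list was drawn up for goblet cell expression, but it also held relatives of Clca1 and the chemokine genes Ccl6 and Ccl9. The cell type that expresses these was not checked here. Of the 15 tested genes of this list, 1 was higher and 0 were lower, with a median of -0.00. Without BBR mouse 3, 3 were higher and 5 were lower, which is 53.3% beside 33.8% of all tested genes. The gene called with all mice was Bcas1, at 76.6, 73.36 and 61.38 FPKM in BBR mice and at 34.45, 47.91 and 44.52 FPKM in SASP mice. Every BBR mouse was above every SASP mouse, with a log2 fold change of 0.73 (adjusted p = 0.0367 by limma). The calls of Pdia4, Galnt7 and Bcas1 held without BBR mouse 3, but leaving out any of the other mice ended those of Pdia4 and Bcas1. Leaving out any of the others except SASP mouse 2 ended that of Galnt7. Without any of these other mice only 51 to 405 of all tested genes passed, against 1069 with all 6 mice. With the epithelial marker mean subtracted, Galnt7 (0.25, adjusted p = 0.214 by limma) and Bcas1 (0.45, adjusted p = 0.119 by limma) did not pass.

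Among 5 tested other mucins, 10 antimicrobial and lectin genes, and 9 genes of type 2 and IL-22 signalling, 0 passed in each list, with medians of -0.35, -0.12 and 0.14. Without BBR mouse 3, 2, 2 and 5 genes passed, of 5, 10 and 8 tested, where 33.8% of all tested genes did. With array weights 5, 5 and 8 passed, where 59% of all tested genes did. Muc13, a cell surface mucin, was at 1625.05, 1296.05 and 3503.97 FPKM in BBR mice and at 3260.9, 3562.76 and 3379.11 FPKM in SASP mice. As for Retnlb, BBR mice 1 and 2 were low. BBR mouse 3 was at the SASP level for Muc13, whereas for Retnlb it stayed below every SASP mouse. The log2 fold change of Muc13 was -0.80 (adjusted p = 0.183 by limma). Muc13 passed without BBR mouse 3 (-1.23, adjusted p = 0.00374 by limma) and with array weights (-1.07, adjusted p = 0.000456 by limma). Lypd8, an epithelial protein that keeps flagellated bacteria off the colon surface, had a log2 fold change of -0.20 (adjusted p = 0.734 by limma). Il13ra1, a receptor chain for IL-13, had a log2 fold change of -0.38 (adjusted p = 0.111 by limma). Il13ra1 passed without BBR mouse 3 (-0.48, adjusted p = 0.0237 by limma), with the epithelial marker mean subtracted (-0.66, adjusted p = 0.0216 by limma) and with array weights (-0.53, adjusted p = 0.000743 by limma). With the epithelial marker mean subtracted, 17% of all tested genes passed. The cytokine genes Il4, Il5 and Il25 were at most 0.15 FPKM in every mouse.

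**Figure D4:**
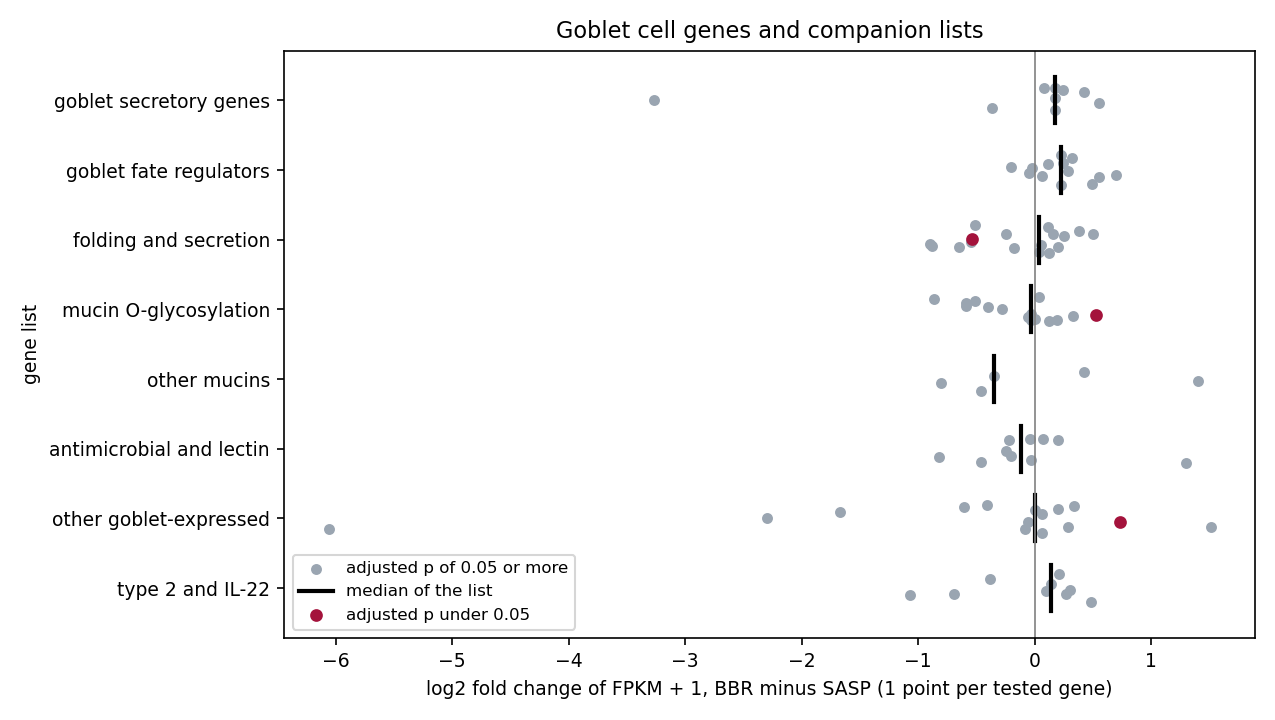
Log2 fold change of FPKM + 1 (BBR minus SASP) of every tested gene in the goblet cell set and in 7 companion lists, from all 6 mice, with red points at an adjusted p under 0.05 and black bars at list medians. The 3 red points are Pdia4 (lower in BBR), Galnt7 and Bcas1 (higher in BBR), and none lies among the 9 goblet cell secretory genes.

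The genes whose pattern over the 6 mice was most like the mean standardised profile of the goblet cell genes were Rexo2, Trat1, Rdh1, Zfp131, Camk2n1, Kcnk6, Tat and Nptn, with Pearson r between 0.975 and 0.996. Rexo2, a mitochondrial oligoribonuclease, was at 30.83, 28.47 and 46.2 FPKM in BBR mice and at 27.39, 33.3 and 33.04 FPKM in SASP mice. Tat, a tyrosine aminotransferase, was at 31.66, 28.71 and 243.39 FPKM in BBR mice and at 28.08, 46.51 and 40.38 FPKM in SASP mice. In both, BBR mouse 3 was the highest of all mice. With the group means removed, the 8 nearest genes were Pyy, Thpo, Rexo2, Rdh1, LOC115490151, 2310079G19Rik, Cyp2d10 and Sema6d, with r between 0.995 and 0.999. Pyy, the peptide YY hormone of enteroendocrine cells, was at 164.14, 136.25 and 327.81 FPKM in BBR mice and at 172.0, 223.33 and 220.34 FPKM in SASP mice.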

How the data were processed

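RNA was sequenced from colorectal tissue of 3 BBR and 3 SASP mice. The deposited table holds FPKM, which the authors calculated with RSEM 1.2.12 from reads aligned with Bowtie2 2.2.5, and the submitters' processing notes list the build mm9. The annotation is not given in the sources used here. The labels name an Illumina kit and the study's methods another platform. RSEM divides shared reads, so near-identical paralogs (Clca and Retnl families) are uncertain.

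Values were transformed as log2(FPKM + 1), which understates changes of low genes. Genes at 1 FPKM or more in at least 3 of 6 samples were fitted in limma 3.58.1 (R 4.3.3) with a mean-variance trend. Tests were two-sided, with Benjamini-Hochberg adjustment at 0.05. The fit was tested on simulated data. An exact test of 3 against 3 cannot go below 0.10. Samples are called mice here, but the labels do not state that each came from a separate animal, and p-values measure only the spread between these samples. Depth was estimated from genes seen in 1 sample only. Columns of values not used numbered 0.

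The members and lists were chosen with earlier results of these data known. All members were named. Of each companion list, up to 3 genes with the smallest p among those called were named, or otherwise the gene with the highest mean FPKM, and for likeness 8 genes by Pearson r. Other genes were named after their values were seen. Alternatives covered the pseudocount (0.1, 0.01), the filter, 3 scalings, the variance model, array weights and leaving out each mouse.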

Additional observations from a re-analysis of the deposited data

How the results depend on the processing

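Over all genes, 1069 passed the threshold. This became 608 with no filter, 1737 with quantile normalization, 1683 with median-ratio scaling, 2047 with the epithelial marker mean subtracted, 7126 with array weights and 3837 at an unadjusted p of at most 0.05, and it ran from 51 (without SASP mouse 3) to 4018 (without BBR mouse 3) when 1 mouse was left out. The share of calls higher in BBR was 43.1%, but 29.6% with median-ratio scaling, 5.28% with the epithelial mean subtracted and 65.1% with array weights. The median log2 fold change of all genes moved from 0.10 to -0.02 with median-ratio scaling and to -0.18 with the epithelial mean subtracted. The number of goblet cell genes past the threshold was 0, but 1 with the epithelial mean subtracted (Retnlb, -3.55, adjusted p = 0.0441), 2 with array weights (Retnlb, -3.41, adjusted p = 0.000398, and Spink4, -0.47, adjusted p = 0.04) and 1 at an unadjusted p, and it ran from 0 to 2 when 1 mouse was left out. In these limma fits 17% and 59% of all genes passed with the epithelial mean and with array weights. Without BBR mouse 3, where 2 goblet cell genes passed, 33.8% of all genes did. The causes were not tested.

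The sign of Muc2 turned with quantile normalization (-0.05), median-ratio scaling (-0.05), the epithelial mean (-0.19) and array weights (-0.24). With the epithelial mean the signs of Fcgbp (-0.11), Zg16 (-0.11), Agr2 (-0.11), Spdef (-0.04) and Elf3 (-0.05) turned, and with array weights those of Fcgbp (-0.11) and Zg16 (-0.20). When 1 mouse was left out, log2 fold changes ran from -0.21 to 0.26 for Muc2, from -0.04 to 0.30 for Fcgbp, from -0.28 to 0.48 for Zg16, from -0.83 to 0.07 for Spink4 and from -0.45 to 0.02 for Lypd8. Those of Clca1 and Tff3 stayed above 0 and that of Retnlb below 0 in all 15 alternative fits. The adjusted p of Galnt7 was 0.0504 with median-ratio scaling, and that of Bcas1 was 0.0572 with no filter, both by limma. With the epithelial mean subtracted their adjusted p were 0.214 and 0.119. Of 210 list results, 56 moved. No paired analysis was done, because the labels give no pairing between BBR and SASP mice.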

Other observations

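Other members of the Clca family parted BBR mouse 3 from BBR mice 1 and 2 more strongly than Clca1 did. They were singled out after their values were seen. Clca4b was at 2.59, 0.43 and 1105.23 FPKM in BBR mice 1, 2 and 3, and at 1658.07, 1185.86 and 861.05 FPKM in SASP mice, with a log2 fold change of -6.06 (adjusted p = 0.124 by limma). Clca4a was at 22.87, 17.48 and 338.1 FPKM in BBR mice and at 232.57, 276.48 and 274.35 FPKM in SASP mice. Clca3b was at 29.35, 29.06 and 202.73 FPKM in BBR mice and at 221.51, 205.37 and 129.93 FPKM in SASP mice. In all 3 genes, BBR mice 1 and 2 were below every SASP mouse and BBR mouse 3 was not. These genes are close relatives, so the share of reads given to each is uncertain.

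The genes whose pattern over the 6 mice was most like that of Retnlb were Dmbt1 and Rab32, both at a Pearson r of 0.998, a comparison also added after the data had been seen. Dmbt1, a scavenger receptor secreted into mucus, was at 1543.57, 1206.33 and 2671.89 FPKM in BBR mice and at 3097.3, 3245.53 and 2707.23 FPKM in SASP mice, so that its groups did not overlap. Retnla, a relative of Retnlb, ran the other way, at 6.14, 6.73 and 3.47 FPKM in BBR mice and at 1.23, 0.92 and 2.88 FPKM in SASP mice, with a log2 fold change of 1.30 (adjusted p = 0.0519 by limma). Il4ra, the receptor chain shared by IL-4 and IL-13, was at 4.96, 5.87 and 11.94 FPKM in BBR mice and at 16.51, 15.07 and 16.45 FPKM in SASP mice, with a log2 fold change of -1.07 (adjusted p = 0.059 by limma). Muc3a, a membrane mucin gene, was at 48.37, 21.65 and 67.31 FPKM in BBR mice and at 11.52, 23.06 and 12.89 FPKM in SASP mice, with a log2 fold change of 1.40 (adjusted p = 0.0807 by limma). The far more abundant entry Muc3 was at 986.77 to 1565.99 FPKM in BBR mice and 881.69 to 1056.39 FPKM in SASP mice. Its log2 fold change was only 0.42 (adjusted p = 0.203 by limma). How reads were shared between these entries was not checked.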
